A study of Mus musculus with 120 samples.

Results

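Wnt ligands, the Frizzled receptors that bind them and 10 genes that respond to or modulate the signal were examined in single cells of the mouse endolymphatic sac, the fluid-filled outpocketing of the inner ear. The members were all gene symbols of the deposited table that name a numbered Wnt or Fzd gene, together with Axin2, Lef1, Tcf7, Nkd1, Sp5, Lgr5, Rnf43, Znrf3, Notum and Apcdd1. This gave 39 members (19 Wnt genes, 10 Fzd genes and the 10 others) of 48371 symbols, chosen by symbol, with earlier results of these data known. The cells came from E14.5 embryos of 2 genotypes, 62 from animals heterozygous for the mutant Sox9 allele (Sox9Y440X/+, a change named for a premature stop codon in the transcription factor SOX9) and 58 from wild-type animals. RNA was read with Smart-seq2, which captures whole transcripts of each cell. Both genotypes share age and organ. The sources used here do not give strain, sex, the number of animals or any pooling.

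Wnt proteins are secreted lipid-modified signals. In the canonical branch they bind a Frizzled receptor and an LRP co-receptor, which stops the destruction of beta-catenin and lets it act in the nucleus with TCF/LEF factors on target genes. Many of those targets, such as Axin2, Nkd1, Notum, Rnf43 and Znrf3, encode inhibitors that damp the same signal, so they are widely used as readouts of it. Other Wnts, Wnt5a among them, act largely without beta-catenin through receptors such as Ror2. In the developing inner ear, Wnt signals from the dorsal hindbrain are known for patterning the dorsal otic vesicle, from which the endolymphatic duct and sac grow out.

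The unit throughout is FPKM, which corrects fragment numbers for transcript length and for the size of the library, and a gene is called detected in a cell at an FPKM of at least 1. Cells with at least 1000 genes were kept, 58 Sox9Y440X/+ and 57 wild-type cells. They were clustered without the members and without 72 further Wnt pathway genes, and the clusters were named from marker genes. Of the Sox9Y440X/+ cells, 18 (31.03%, exact 95% interval 19.5% to 44.5%) were mesenchyme-like and 37 (63.8%) epithelium-like, 5 of these in the ionocyte-like cluster. Of the wild-type cells, 1 (1.75%, 0.0444% to 9.39%) was mesenchyme-like and 53 (93.0%) epithelium-like, 8 of these ionocyte-like. A further 3 cells of each genotype lay in a cluster whose leading genes mixed markers of different classes, and it stayed unnamed. The label fitted the epithelium-like cells: a median of 12 of 14 epithelium markers was detected per Sox9Y440X/+ cell and 11 per wild-type cell, against medians of 1 and 0 of 16 mesenchyme markers. In the mesenchyme-like Sox9Y440X/+ cells the medians were 8.5 mesenchyme markers and 0 epithelium markers. Among those cells 2 stood apart, each with fewer than 3 mesenchyme markers: cell 10 held all 11 endothelium markers and none of mesenchyme, and cell 20 held 3 pericyte markers.

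No label links a cell to its animal, so each genotype is 1 sample, cells are not replicates, and no test of a difference was possible. Differences are of the mean log2(FPKM + 1) over cells, SDs are over cells, and intervals of shares are exact 95% (Clopper-Pearson) intervals of counting error only. A difference of at least 1 log2 unit was counted as past size, among genes found in 10% or more of the cells on either side. FPKM carries no read counts, so the depth of a cell is unknown and an exact 0 can be a failed estimate. Epithelium-like cells differed in the number of genes listed above 0, with a median of 4506 in Sox9Y440X/+ and 3314 in wild type, and 67.7% of all genes tested had a higher mean in Sox9Y440X/+ cells, with a median difference of 0.20. The part of this gap in the results below was not tested as such. Differences were recomputed within clusters and, among the alternatives at the end, in cells limited by gene number and with FPKM scaled to the same total. For the limits on gene number and the scaled FPKM, only counts and ranges over all alternatives are given, not single values. Within clusters 1, 3, 7 and 8 the medians were 4249, 5237, 3018 and 2606 in Sox9Y440X/+ cells and 4912.5, 5100, 3120 and 2614 in wild-type cells. Sox9 itself was detected in 36 of 37 Sox9Y440X/+ and 28 of 53 wild-type epithelium-like cells, with averages of 16.6 and 4.18 FPKM. A value per gene cannot tell the mutant from the normal transcript, so it does not check the labels.

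Of the 39 members, 30 were detected in at least 1 of the 115 cells. Wnt1, Wnt2, Wnt3, Wnt3a, Wnt7a, Wnt8a, Wnt8b, Wnt10b and Wnt16, 9 of the 19 ligand genes, were listed at 0 in every cell. Another 6 members were detected in few cells: Apcdd1, a membrane inhibitor of Wnt signalling, in 6, Wnt9a in 4, Wnt5b in 3, and Fzd8, Wnt9b and the R-spondin receptor Lgr5 in 1 cell each. The remaining 24 members reached 10% of the cells of at least 1 of the main groups: 7 Wnt genes, 9 Fzd genes and 8 targets. By group, 16 members reached 10% of the mesenchyme-like Sox9Y440X/+ cells, 16 of the epithelium-like Sox9Y440X/+ cells and 12 of the epithelium-like wild-type cells. The heatmap of members by cell shows how sparse and how uneven these values were.

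**Figure D1:**
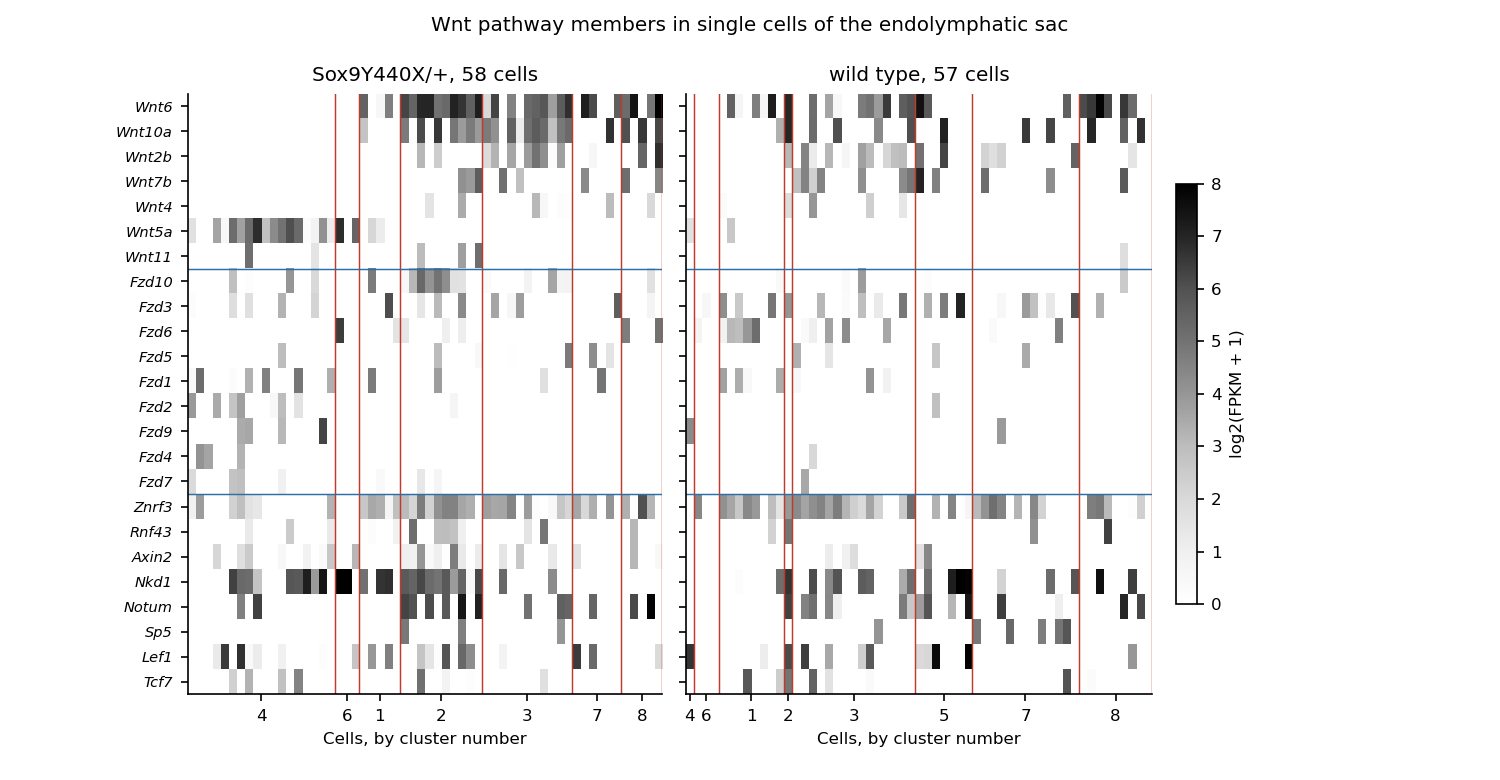
Values of 24 members (rows: ligands, receptors, then targets and nuclear factors, divided by horizontal lines) in 58 Sox9Y440X/+ cells (left) and 57 wild-type cells (right), as log2(FPKM + 1), with values over 8 drawn as 8. Cells are grouped by cluster (4 mesenchyme-like, 6 unnamed, 1 ionocyte-like, the others epithelium-like). Wnt6 was detected in cells of every epithelium-like cluster and in none of cluster 4, where 13 of the 18 Sox9Y440X/+ cells held Wnt5a, and Fzd10 was detected in 7 of the 10 Sox9Y440X/+ cells of cluster 2.

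Upstream sequence was available from RefSeq (GRCm38.p6) for 27 of the 39 members, as 35 start sites. The windows of 4 members are printed because the results turn on these genes: Wnt6 as the most frequent ligand, Fzd10 as the receptor with the largest gap between genotypes, Axin2 as the classical feedback target and Sp5 as the target with a TCF/LEF motif. Each window holds the 250 bases before the start, 5′ to 3′ on the gene's strand, which is the plus strand for all 4. They lie at chr1:74771642-74771891 (Wnt6), chr5:128600856-128601105 (Fzd10), chr11:108920099-108920348 (Axin2) and chr2:70474673-70474922 (Sp5), and capitals mark a match to the motif. The RefSeq start of Fzd10 lies inside the GENCODE gene.
Wnt6: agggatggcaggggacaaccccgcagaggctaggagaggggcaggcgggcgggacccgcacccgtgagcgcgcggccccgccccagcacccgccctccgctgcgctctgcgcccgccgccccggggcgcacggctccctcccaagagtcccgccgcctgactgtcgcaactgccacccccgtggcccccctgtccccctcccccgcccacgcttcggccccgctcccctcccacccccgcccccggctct
Fzd10: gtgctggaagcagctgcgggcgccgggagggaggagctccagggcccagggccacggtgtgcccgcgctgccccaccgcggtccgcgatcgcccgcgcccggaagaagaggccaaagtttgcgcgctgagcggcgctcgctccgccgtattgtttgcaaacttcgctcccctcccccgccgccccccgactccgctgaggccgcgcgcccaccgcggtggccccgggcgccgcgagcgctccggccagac
Axin2: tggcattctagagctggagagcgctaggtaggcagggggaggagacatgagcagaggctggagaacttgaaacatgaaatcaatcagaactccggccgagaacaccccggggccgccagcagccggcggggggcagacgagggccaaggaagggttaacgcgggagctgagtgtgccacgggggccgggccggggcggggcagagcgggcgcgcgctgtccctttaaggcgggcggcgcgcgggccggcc
Sp5: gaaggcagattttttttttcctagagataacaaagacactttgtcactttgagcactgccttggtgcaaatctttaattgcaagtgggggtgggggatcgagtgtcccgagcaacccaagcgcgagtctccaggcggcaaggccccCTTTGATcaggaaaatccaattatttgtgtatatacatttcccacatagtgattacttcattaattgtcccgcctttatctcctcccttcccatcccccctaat

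The motif searched was CTTTGAA or CTTTGAT on either strand (TTCAAAG or ATCAAAG on the other), the core bound by TCF/LEF factors. It was found in the windows of 3 of the 27 members, Sp5, Wnt5b and Wnt11, which is 3 of 35 start sites (8.57%), against 7.48% of all 32851 promoters of the table. In Sp5 the match began 104 bases before the start. The Wnt6, Fzd10 and Axin2 windows held none, and their GC contents were 79.6%, 76.4% and 69.2%, against a median of 52.4% over all promoters and 46% for Sp5. A match is a description of letters, not a binding site.

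The Wnt ligands detected in the sac cells differed by class. Epithelium-like cells held Wnt6, Wnt10a, Wnt2b, Wnt7b and, rarely, Wnt4, and mesenchyme-like cells held Wnt5a. At least 1 of Wnt6, Wnt10a, Wnt2b and Wnt7b was detected in 0 of 18 mesenchyme-like Sox9Y440X/+ cells, which allows a share of up to 16.7%, in 32 of 37 epithelium-like Sox9Y440X/+ cells (86.5%, 71.2% to 95.5%) and in 36 of 53 epithelium-like wild-type cells (67.9%, 53.7% to 80.1%). These 4 ligands were grouped after their values were seen, and each was at 0 in all 18 mesenchyme-like cells, so that 0 was set by the choice. At least 1 of all 19 ligand genes was detected in 14 of 18 mesenchyme-like Sox9Y440X/+ cells. The same held for 34 of 37 epithelium-like Sox9Y440X/+ cells and 37 of 53 wild-type ones. The median cell held 2 of the 19 ligand genes in Sox9Y440X/+ epithelium-like cells and 1 in wild-type ones, each with a range of 0 to 5.

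**Figure D2:**
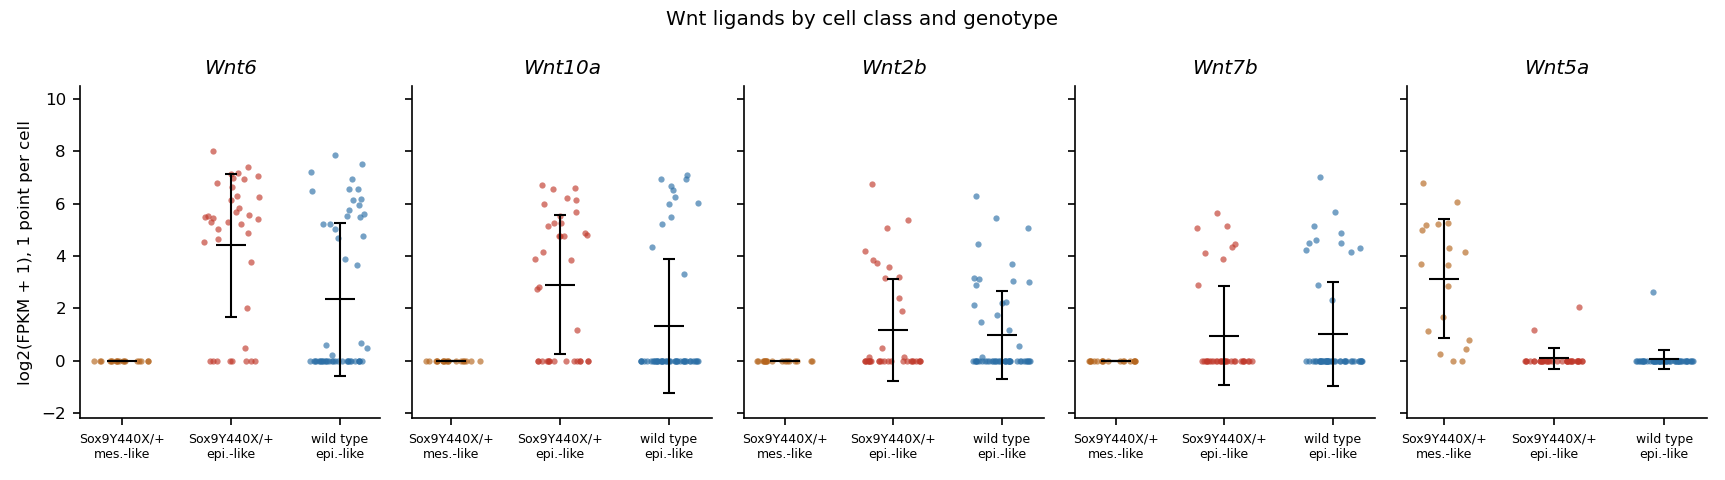
log2(FPKM + 1) of 5 Wnt ligands, 1 point per cell, in 18 mesenchyme-like (mes.-like) and 37 epithelium-like (epi.-like) Sox9Y440X/+ cells and 53 epithelium-like wild-type cells; bars are the mean and SD over cells. Wnt6, Wnt10a, Wnt2b and Wnt7b are at 0 in all mesenchyme-like cells, where Wnt5a reaches an FPKM of 110.1.

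Wnt6 (ENSMUSG00000033227.7, GRCm38 chromosome 1, 74771892 to 74785322), a ligand of many embryonic surface epithelia, was the most frequent ligand. In epithelium-like Sox9Y440X/+ cells it ran from 0 to 256.1 FPKM with a median of 41.9, and in wild-type cells from 0 to 233.9 with a median of 0. The ranges overlap almost entirely, and the shares of cells with the transcript were further apart: 28 of 37 Sox9Y440X/+ cells (75.7%, 58.8% to 88.2%) and 21 of 53 wild-type cells (39.6%, 26.5% to 53.996%). Among cells that had it, the median FPKM was 48.3 in Sox9Y440X/+ and 53.2 in wild type. The difference of mean log2(FPKM + 1) was 2.06, with means of 4.41 (SD 2.73) in Sox9Y440X/+ and 2.34 (SD 2.93) in wild-type cells.

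Wnt10a (ENSMUSG00000026167.14, chromosome 1, 74791516 to 74804179), a ligand required for normal teeth, hair and other skin appendages, is the next gene on the same strand, 6193 bases beyond the end of Wnt6. Its FPKM in epithelium-like cells ran from 0 to 104.1 with a median of 13.4 in Sox9Y440X/+ and from 0 to 134.6 with a median of 0 in wild type. It was detected in 22 of 37 Sox9Y440X/+ cells (59.5%, 42.1% to 75.3%) and in 12 of 53 wild-type cells (22.6%, 12.3% to 36.2%), a difference of 1.58. The median among cells that had it was lower in Sox9Y440X/+ (31.6 FPKM) than in wild type (70.0 FPKM). Measured as a log2 ratio of mean FPKM + 1, which weights the highest cells, the difference was 0.94 for Wnt6 and 0.51 for Wnt10a.

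Cells that held both genes of the adjacent pair were counted. Both were detected in 19 of 37 epithelium-like Sox9Y440X/+ cells, Wnt6 alone in 9, Wnt10a alone in 3 and neither in 6. In wild type both were detected in 6 of 53 cells, Wnt6 alone in 15, Wnt10a alone in 6 and neither in 26. Cells with both made up 86.4% of the Wnt10a cells and 67.9% of the Wnt6 cells in Sox9Y440X/+, and 50% and 28.6% in wild type. Among all epithelium-like cells, Wnt6 was detected in 28 of 37 in Sox9Y440X/+ and 21 of 53 in wild type. Wnt10a was detected in 22 of 37 and 12 of 53. An association beyond these shares was not tested.

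Wnt6 and Wnt10a were the members past 1 log2 unit between genotypes, 2 of the 18 tested, where 7.02% of all 10312 genes tested were that much higher in Sox9Y440X/+. None of the 18 was that much lower, where 1.67% of all genes were. Of the 18 members, 13 were higher and 5 lower in Sox9Y440X/+, with a median difference of 0.19, close to the 0.20 of all genes. Of these members, 16 reached 10% of the Sox9Y440X/+ cells and 12 reached 10% of the wild-type cells. Wnt4, Fzd1, Fzd5, Fzd10, Axin2 and Rnf43 did so in Sox9Y440X/+ alone, and Tcf7 and Sp5 in wild type alone. Such members lean towards the genotype that admitted them, so these counts are partly set by the filter, which also held for all genes. Among the ligands tested, 4 of 5 were higher, where 67.7% of all genes were. Outside the ionocyte-like cluster the same 2 of 16 members were past 1 log2 unit higher and 0 lower, where 9.51% and 2.01% of all genes were.

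The mix of clusters differed between genotypes. Cluster 2 (led by Fam132a, Aldh1a3 and Lypd2) held 10 Sox9Y440X/+ cells and 1 wild-type cell, while cluster 5 (led by Aldh1a3 and Oc90) held 7 wild-type cells only. Within the 4 epithelium-like clusters with at least 5 cells of each genotype, Wnt10a was higher in Sox9Y440X/+ in 4 of 4, by 0.13 to 2.61, and Wnt6 in 3 of 4, by -0.21 to 2.703. In cluster 3 (led by Aldh1a1), Wnt10a was detected in 10 of 11 Sox9Y440X/+ and 4 of 15 wild-type cells and Wnt6 in 9 of 11 and 8 of 15. Cluster 7 (led by Spp1) had Wnt6 in 3 of 6 Sox9Y440X/+ and 1 of 13 wild-type cells. The mean of the 4 within-cluster differences was 1.18 for Wnt6 and 1.13 for Wnt10a, against 2.06 and 1.58 over all cells. Wnt10a also depended on which cells were taken: its difference was 2.61 in odd-numbered and 0.64 in even-numbered cells, and 0.92 against wild-type cells without Xist detected. Both 0.64 and 0.92 lie short of 1 log2 unit. Cells with Xist were left out of wild type only, and what part the sex of the embryos has in the differences was not tested. The plot of differences within clusters shows these values for all 24 members.

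**Figure D3:**
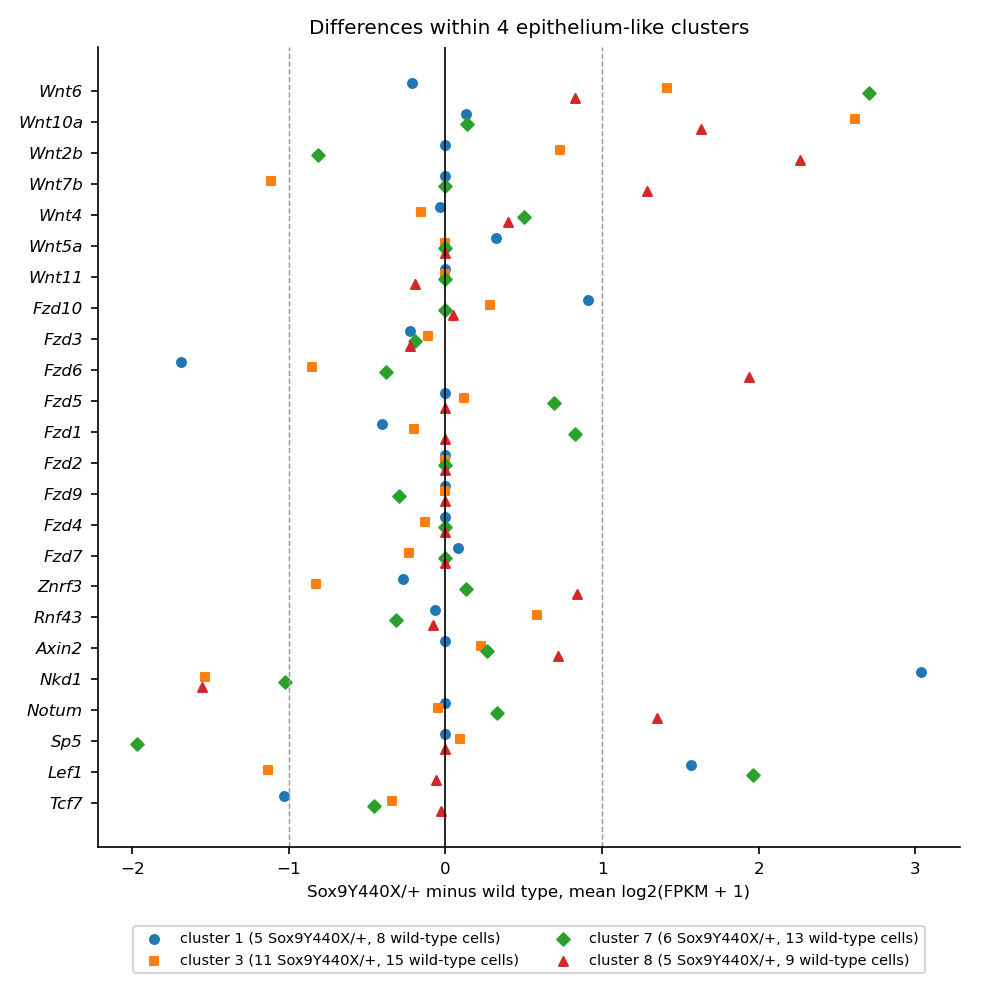
Difference of mean log2(FPKM + 1), Sox9Y440X/+ minus wild type, for 24 members in each of 4 epithelium-like clusters with at least 5 cells of each genotype; dashed lines mark 1 log2 unit. Wnt10a lies right of 0 in all 4 clusters and Fzd3 and Tcf7 left of 0 in all 4, while Nkd1 spans -1.56 to 3.04.

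Wnt2b, a canonical ligand also made at the ciliary margin of the eye, was detected in close shares of epithelium-like cells, 11 of 37 in Sox9Y440X/+ (29.7%, 15.9% to 46.98%) and 16 of 53 in wild type (30.2%, 18.3% to 44.3%). Its FPKM reached 107.0 in Sox9Y440X/+ and 77.7 in wild type, with medians of 0 in both. Cluster 3 held 7 of the 11 Wnt2b cells in Sox9Y440X/+ and 8 of the 16 in wild type. Wnt7b, known from epithelia of the lung and the kidney collecting duct, was detected in 8 of 37 epithelium-like cells in Sox9Y440X/+ (21.6%, 9.83% to 38.2%) and 12 of 53 in wild type (22.6%, 12.3% to 36.2%). Its differences within clusters ran from -1.11 to 1.29. The cells that held both of these ligands were 1 of 37 in Sox9Y440X/+ and 6 of 53 in wild type. Wnt4, which acts in the kidney and the female reproductive tract, was detected in 5 of 37 Sox9Y440X/+ and 4 of 53 wild-type cells at no more than 14.7 FPKM. Wnt11, a largely beta-catenin-independent ligand, was detected in 2 of 18 mesenchyme-like and 3 of 37 epithelium-like Sox9Y440X/+ cells and in 1 of 53 wild-type cells.

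Wnt5a (ENSMUSG00000021994.14, chromosome 14, 28504750 to 28527448), the main beta-catenin-independent ligand of limb and facial mesenchyme, showed the reverse pattern. In the 18 mesenchyme-like Sox9Y440X/+ cells it ran from 0 to 110.1 FPKM with a median of 11.8, and it was detected in 13 of them (72.2%, 46.5% to 90.3%). In epithelium-like cells it was detected in 2 of 37 Sox9Y440X/+ (5.41%) and 1 of 53 wild-type cells (1.89%), at no more than 3.20 and 5.10 FPKM, and all 3 of these cells were ionocyte-like. Mesenchyme-like minus epithelium-like Sox9Y440X/+ cells, its difference was 3.05, with means of 3.14 (SD 2.28) and 0.09 (SD 0.39). Without the 2 cells with few mesenchyme markers, 13 of 16 held Wnt5a and the difference was 3.44. The lone mesenchyme-like wild-type cell had Wnt5a at 2.11 FPKM, so no comparison of genotypes within mesenchyme-like cells can be made.

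Between these classes, 2 of the 23 members tested were at least 1 log2 unit higher in mesenchyme-like cells, Wnt5a and Fzd2, where 10.3% of the 11679 genes tested were. At least that much lower were 5 members, where 13.8% of all genes were: Wnt6 (-4.41), Wnt10a (-2.91), Znrf3 (-1.68), Notum (-1.39) and Wnt2b (-1.19). Wnt5a and Fzd2 passed the filter through the mesenchyme-like cells alone, and Wnt6, Wnt10a and Wnt2b through the epithelium-like cells alone. Such members lean towards the class that admitted them, so these counts are partly set by the filter, which also held for all genes. Znrf3 and Notum passed it in both classes. Wnt6, Wnt10a, Wnt2b, Wnt7b, Wnt4, Fzd6 and Sp5 were listed at 0 in all 18 mesenchyme-like cells, so their log2 differences depend on the pseudocount and give no fold. The cells of both classes come from the same sample, and the median number of genes per cell was 3746.5 in mesenchyme-like and 4506 in epithelium-like Sox9Y440X/+ cells.

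Frizzled receptors were each found in a minority of the cells of each main group. Of the 9 tested between classes, 5 were higher and 4 lower in mesenchyme-like cells, with Fzd2 alone past 1 log2 unit. Fzd2, Fzd4, Fzd7 and Fzd9 reached 10% in mesenchyme-like cells only, and Fzd5 and Fzd6 in epithelium-like cells only. Such receptors lean towards the class that admitted them. At least 1 of Fzd2, Fzd4, Fzd7 and Fzd9 was detected in 10 of 18 mesenchyme-like Sox9Y440X/+ cells (55.6%, 30.8% to 78.5%), in 1 of 37 epithelium-like Sox9Y440X/+ cells (2.703%, 0.0684% to 14.2%) and in 4 of 53 epithelium-like wild-type cells (7.55%, 2.09% to 18.2%). These 4 receptors were grouped after their values were seen. Fzd2, a receptor needed for closure of the palate in the mouse, was detected in 6 mesenchyme-like cells (33.3%, 13.3% to 59.01%) at 1.92 to 14.01 FPKM, in none of 37 epithelium-like Sox9Y440X/+ cells and in 1 of 53 wild-type cells, and its class difference was 1.03. Fzd9 was detected in 4 mesenchyme-like cells, 1 of which (77.5 FPKM) held 73.2% of the total. Its difference was 0.91 and became 1.03 without the 2 cells with few mesenchyme markers. Fzd4, the receptor of the vascular signal Norrin, was detected in 3 mesenchyme-like cells, and 2 of these were cells 10 and 20, which held endothelium and pericyte markers. Among the other 16 mesenchyme-like cells 1 held Fzd4, and the difference was 0.20 in place of 0.61. Fzd7 was detected in 3 of 18 mesenchyme-like cells at no more than 6.62 FPKM.

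**Figure D4:**
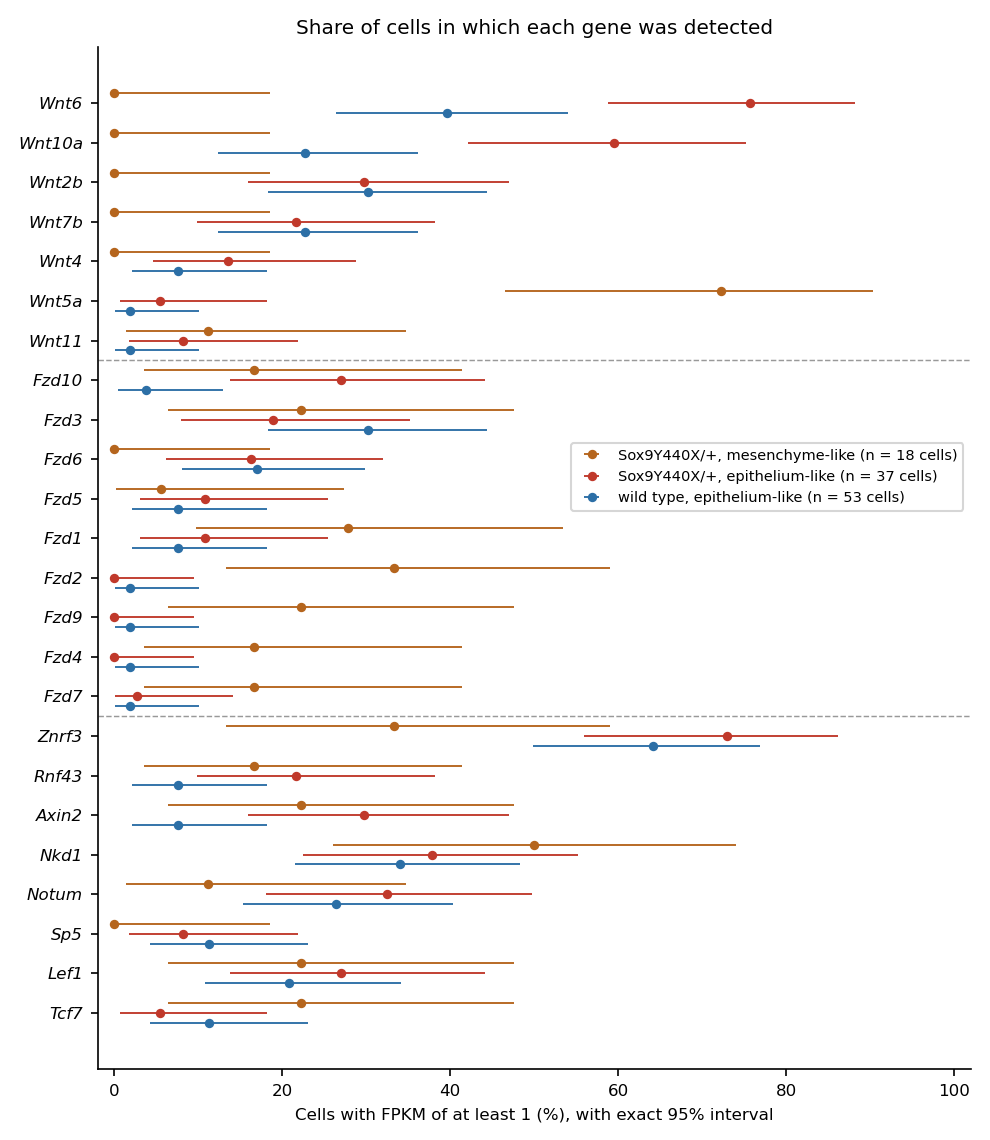
Percent of cells in which each of 24 members was detected (FPKM of at least 1), with exact 95% intervals of counting error, in 18 mesenchyme-like and 37 epithelium-like Sox9Y440X/+ cells and 53 epithelium-like wild-type cells; dashed lines divide ligands, receptors and targets. Wnt6 (75.7% and 39.6%), Wnt10a (59.5% and 22.6%) and Fzd10 (27.03% and 3.77%) show the widest gaps between epithelium-like Sox9Y440X/+ and wild-type cells.

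Fzd10 (ENSMUSG00000081683.5, chromosome 5, 128600844 to 128604093) was the receptor that differed most between genotypes. It was detected in 10 of 37 epithelium-like Sox9Y440X/+ cells (27.03%, 13.8% to 44.1%), at up to 39.04 FPKM, and in 2 of 53 wild-type cells (3.77%, 0.460% to 12.98%), at up to 13.2 FPKM. Its difference of 0.89 was short of 1 log2 unit, but it passed that size as a log2 ratio of mean FPKM + 1. Of the 10 Sox9Y440X/+ cells with it, 7 belonged to cluster 2, which held 1 wild-type cell, and none of the cells of cluster 7 had it. Without the clusters nearly of 1 genotype the difference was 0.31. In Sox9Y440X/+ epithelium-like cells, 9 of the 10 Fzd10 cells also held Wnt6, which was detected in 28 of all 37. Fzd10 was also detected in 3 of 18 mesenchyme-like Sox9Y440X/+ cells.

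Fzd3 and Fzd6, receptors that orient hairs and sensory cells through planar cell polarity, had lower means in the epithelium-like Sox9Y440X/+ cells, by less than 1 log2 unit. Fzd3 was detected in 7 of 37 Sox9Y440X/+ (18.9%, 7.96% to 35.2%) and 16 of 53 wild-type cells (30.2%, 18.3% to 44.3%), a difference of -0.36, and it was lower in 4 of 4 clusters, by 0.11 to 0.23, none of them near 1 log2 unit. Fzd6 was detected in 6 of 37 Sox9Y440X/+ and 9 of 53 wild-type cells, a difference of -0.24 that became 0.02 outside the ionocyte-like cluster and ran from -1.69 to 1.94 within clusters. Fzd5, which acts in eye development, was detected in 4 of 37 Sox9Y440X/+ and 4 of 53 wild-type cells. Fzd1 was detected in 5 of 18 mesenchyme-like and 4 of 37 epithelium-like Sox9Y440X/+ cells and in 4 of 53 epithelium-like wild-type cells. Of the 5 receptors tested between genotypes 3 were higher and 2 lower in Sox9Y440X/+, none by 1 log2 unit. Fzd1, Fzd5 and Fzd10 were tested through the Sox9Y440X/+ cells alone.

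The median epithelium-like cell held 2 of the 10 targets in both genotypes, with a range of 0 to 8 in Sox9Y440X/+ and 0 to 7 in wild type. All 5 feedback inhibitors tested were higher in Sox9Y440X/+, with a median difference of 0.36 and none by 1 log2 unit, where 67.7% of all genes were higher and their median was 0.20. Of the 6 inhibitors, 5 reached 10% of the Sox9Y440X/+ cells and 3 reached 10% of the wild-type cells. Axin2 and Rnf43 were tested through the Sox9Y440X/+ cells alone, which favours a higher mean there. Outside the ionocyte-like cluster 4 of 5 were higher, with Nkd1 at -0.34, and within clusters Nkd1 and Rnf43 were each lower in 3 of 4.

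**Figure D5:**
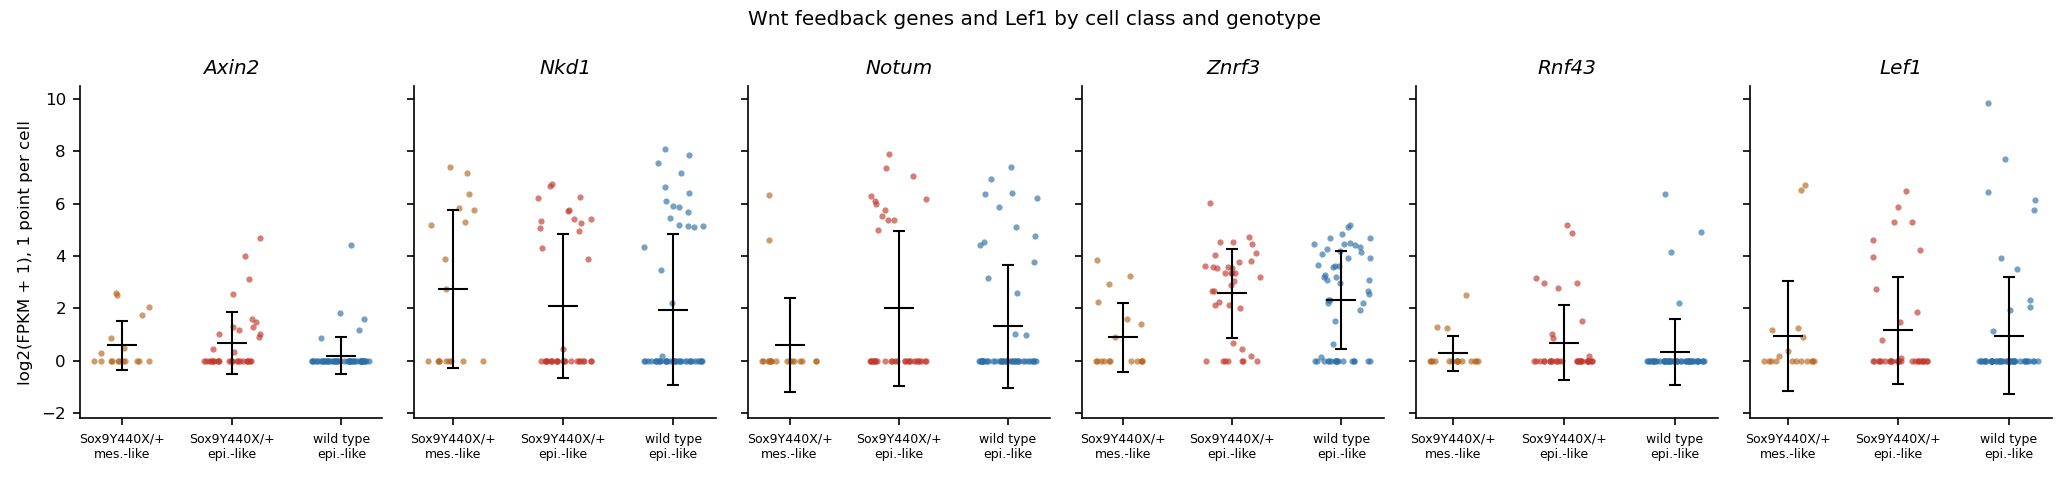
log2(FPKM + 1) of 5 feedback inhibitors and Lef1, 1 point per cell, in 18 mesenchyme-like (mes.-like) and 37 epithelium-like (epi.-like) Sox9Y440X/+ cells and 53 epithelium-like wild-type cells; bars are the mean and SD over cells. The highest Lef1 point is the wild-type cell at 933.3 FPKM. Znrf3 is present in most epithelium-like cells, and Nkd1 in 50%, 37.8% and 33.96% of the cells of the 3 groups, in that order.

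Axin2 (ENSMUSG00000000142.15, chromosome 11, 108920349 to 108950783), a scaffold of the complex that destroys beta-catenin, had low values in most of the cells that held it. It was detected in 11 of 37 epithelium-like Sox9Y440X/+ cells (29.7%, 15.9% to 46.98%) with a median of 1.76 FPKM among them, and in 4 of 53 wild-type cells (7.55%, 2.09% to 18.2%) with a median of 2.25 FPKM among them. The difference was 0.49, and 0.30 as the mean within clusters. The lowest detected values, 1.04 FPKM in Sox9Y440X/+ and 1.26 FPKM in wild type, lay close to the detection limit, and the highest were 24.9 and 20.6 FPKM. At an FPKM of at least 5, its shares were 8.11% in Sox9Y440X/+ and 1.89% in wild type. Mesenchyme-like Sox9Y440X/+ cells held it in 4 of 18.

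Znrf3 and Rnf43 encode related membrane ubiquitin ligases that remove Frizzled receptors from the cell surface. Znrf3 (ENSMUSG00000041961.14, chromosome 11, 5276324 to 5444847) was the most widespread target. It was detected in 27 of 37 epithelium-like Sox9Y440X/+ (73.0%, 55.9% to 86.2%) and 34 of 53 wild-type cells (64.2%, 49.8% to 76.9%), with medians of 8.15 and 5.26 FPKM, a difference of 0.26. In mesenchyme-like Sox9Y440X/+ cells it was detected in 6 of 18 (33.3%, 13.3% to 59.01%) with a median of 0. Rnf43 was rarer, with 8 of 37 Sox9Y440X/+ and 4 of 53 wild-type epithelium-like cells. All 4 of those wild-type cells and 6 of those 8 Sox9Y440X/+ cells also held Znrf3, against 34 of 53 and 27 of 37 of all such cells.

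Nkd1 (ENSMUSG00000031661.12, chromosome 8, 88521354 to 88594884), which binds Dishevelled and blocks the signal inside the cell, was absent from most cells and high in the rest. In epithelium-like cells it was detected in 14 of 37 Sox9Y440X/+ (37.8%, 22.5% to 55.2%) and 18 of 53 wild-type cells (33.96%, 21.5% to 48.3%), with medians among those cells of 41.7 and 54.2 FPKM. The difference of 0.14 had no settled sign: it was 1.19 in odd-numbered and -0.79 in even-numbered cells, and within clusters it ran from -1.56 to 3.04. In mesenchyme-like Sox9Y440X/+ cells it was detected in 9 of 18 (50%, 26.02% to 74.0%), up to 168.9 FPKM. Of these 9 cells 7 also held Wnt5a, which was detected in 13 of all 18.

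Notum (ENSMUSG00000042988.10, chromosome 11, 120653788 to 120661175), a secreted enzyme that strips the lipid from Wnt proteins, was detected in 12 of 37 epithelium-like Sox9Y440X/+ (32.4%, 18.01% to 49.8%) and 14 of 53 wild-type cells (26.4%, 15.3% to 40.3%). It reached 237.9 FPKM in Sox9Y440X/+ and 166.5 FPKM in wild type, and the difference was 0.69. Mesenchyme-like Sox9Y440X/+ cells had it in 2 of 18 (11.1%, 1.38% to 34.7%), giving the class difference of -1.39.

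Among nuclear factors, Lef1, an HMG-box partner of beta-catenin, was detected in 10 of 37 epithelium-like Sox9Y440X/+ (27.03%, 13.8% to 44.1%) and 11 of 53 wild-type cells (20.8%, 10.8% to 34.1%). A wild-type cell of cluster 5 had 933.3 FPKM and held 67.3% of the wild-type total. The mean FPKM (7.84 in Sox9Y440X/+ and 26.2 in wild type) and the mean log2 value (1.16 and 0.96) put the genotypes in opposite order. Tcf7, its relative, was detected in 2 of 37 Sox9Y440X/+ and 6 of 53 wild-type epithelium-like cells, a difference of -0.30, and was lower in Sox9Y440X/+ in 4 of 4 clusters, by 0.03 to 1.03. It was detected in 4 of 18 mesenchyme-like Sox9Y440X/+ cells. Sp5, a zinc-finger factor and direct target, was detected in 3 of 37 Sox9Y440X/+ and 6 of 53 wild-type epithelium-like cells, and 5 of those 6 wild-type cells lay in cluster 7.

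Cluster 2 stood out for its targets. Its 10 Sox9Y440X/+ cells held a median of 4 of the 10 targets each, with a range of 2 to 8, and its 1 wild-type cell held 6. In the other epithelium-like clusters the median of Sox9Y440X/+ cells was 1 or 2. In cluster 2, Sox9Y440X/+ cells had Wnt6 in 10 of 10 (32.1 to 144.6 FPKM), Nkd1 and Znrf3 in 9, Wnt10a and Fzd10 in 7, Axin2 and Notum in 6, and Rnf43 and Lef1 in 5. The wild-type cell of this cluster held Wnt6 (121.9 FPKM), Wnt10a (122.7), Nkd1 (99.2), Notum (81.1) and Lef1 (69.6), but neither Axin2 nor Fzd10. The median number of genes in Sox9Y440X/+ cells was 4880.5 in cluster 2, 5237 in cluster 3 (median of 2 targets), 3018 in cluster 7 and 2606 in cluster 8 (median of 1 target each), and the part of gene number in these counts was not tested. Cluster 5, of wild-type cells only, had a median of 3 targets at a median of 2223 genes, with Nkd1, Notum and Lef1 in 4 of 7 cells each. With 1 sample per genotype, a cluster nearly of 1 genotype and that sample cannot be told apart.

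The ionocyte-like cluster, cells of the acid- and anion-transporting type, lacked some members found in the other epithelium-like cells. Its leading genes were, in order, Atp6v1c2, Foxi1, Atp6v0d2, Plet1, Dcn, Tmem117 and Slc26a4, and Dcn is a listed mesenchyme marker. Its Sox9Y440X/+ cells held a median of 8 of 17 ionocyte markers (6 to 11), and its wild-type cells 13 (11 to 14). The label thus fitted the genotypes unequally, and what part this has in their differences within the cluster was not tested. Wnt2b, Wnt7b, Axin2 and Notum were detected in 0 of 5 Sox9Y440X/+ and 0 of 8 wild-type ionocyte-like cells, counts that allow shares of up to 60% and 37.5%. The median number of targets per cell was 2 in Sox9Y440X/+ and 1 in wild-type ionocyte-like cells, and every one of these cells held at least 1. Outside that cluster, Wnt2b was detected in 11 of 32 Sox9Y440X/+ and 16 of 45 wild-type cells, and Notum in 12 of 32 and 14 of 45. Wnt7b was detected there in 8 of 32 and 12 of 45, and Axin2 in 11 of 32 and 4 of 45. With Axin2 that rare in the other wild-type cells, its 0 of 8 does not set the wild-type ionocyte-like cells apart. Relative to other epithelium-like cells, 1 of 17 members tested was at least 1 log2 unit higher and 5 lower in Sox9Y440X/+ ionocyte-like cells, where 21.8% and 12.7% of all genes were. In wild type 2 of 16 members were higher and 5 lower, where 24.1% and 6.06% of all genes were. Lower in both genotypes were Wnt10a (-2.73 in Sox9Y440X/+ and -1.09 in wild type), Notum (-2.31 and -1.55), Wnt2b (-1.38 and -1.15) and Wnt7b (-1.11 and -1.21). Notum, Wnt2b and Wnt7b were at 0 in all ionocyte-like cells, so they passed the filter through the other cells and could only be lower. On the ionocyte-like side 1 cell with a gene was enough to pass (20% of 5 cells and 12.5% of 8).

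Nkd1 pointed opposite ways in the ionocyte-like cells. It was present in 3 of 5 Sox9Y440X/+ cells, at 32.4, 101.0 and 108.2 FPKM, and in 1 of 8 wild-type cells, at 34.6 FPKM, which gave differences from other epithelium-like cells of 1.86 and -1.52. Fzd6 and Fzd1 were higher in wild-type ionocyte-like cells, by 1.61 and 1.24: Fzd6 was detected in 4 of 8 of them, against 5 of 45 other epithelium-like cells, and Fzd1 in 3 of 8, against 1 of 45. In Sox9Y440X/+ each was detected in 1 of 5 ionocyte-like cells. In wild type Fzd1 passed the filter through the ionocyte-like cells alone, which favours a higher mean there. Over the alternatives the wild-type difference ran from 0.07 to 2.49 for Fzd1 and from 0.51 to 3.09 for Fzd6. The wild-type ionocyte-like cells had a median of 4912.5 genes, against 3159 in the other epithelium-like cells. Of all genes tested between them, 68.6% had a higher mean in the ionocyte-like cells. Wnt6 was detected in 2 of 5 Sox9Y440X/+ and 3 of 8 wild-type ionocyte-like cells, and Znrf3 in 4 of 5 and 7 of 8. Numbers this small leave wide intervals, 14.7% to 94.7% for Nkd1 in Sox9Y440X/+ and 0.316% to 52.7% in wild type.

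The rest of the pathway was described from 8 lists of 72 genes. Between genotypes 48 of them could be tested in epithelium-like cells, of which 32 were higher and 16 lower in Sox9Y440X/+, with a median difference of 0.20 (0.20 over all genes) and 1 past 1 log2 unit in each direction, where 7.02% of all genes were that much higher and 1.67% lower. Outside the ionocyte-like cluster 2 were higher, with Tcf7l2 at 1.07 as the added gene, and 1 lower, where 9.51% and 2.01% of all genes were. The one higher was Sfrp2, a secreted decoy that binds Wnt proteins, detected in 16 of 37 Sox9Y440X/+ (43.2%, 27.1% to 60.5%) and 6 of 53 wild-type cells (11.3%, 4.27% to 23.03%), with a difference of 1.37. The one lower was Dkk3, a Dickkopf family member, detected in 20 of 37 Sox9Y440X/+ (54.1%, 36.9% to 70.5%) and 44 of 53 wild-type cells (83.0%, 70.2% to 91.9%), with mean FPKM of 19.5 and 96.2 and a difference of -2.73. Wls, the carrier that takes Wnt proteins to the surface, was abundant in epithelium-like cells of both genotypes, at medians of 321.4 FPKM in Sox9Y440X/+ and 223.2 FPKM in wild type, and was found in 34 of 37 and 47 of 53 cells.

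In the other lists no gene tested differed by 1 log2 unit between genotypes over all epithelium-like cells. By mean log2(FPKM + 1), Ror2 (difference 0.39) and Lrp6 (0.49) ranked highest among receptors, and among R-spondins and their receptors Lgr4 (0.13) and Rspo3 (0.17) did. Of the cytoplasmic relay, Ctnnb1, the gene of beta-catenin, was detected in 28 of 37 Sox9Y440X/+ and 39 of 53 wild-type cells with a difference of -0.04, and Csnk1a1, a kinase that marks beta-catenin for destruction, in 34 of 37 and 49 of 53. Of its nuclear partners, Tcf7l2 was the most abundant and was detected in 30 of 37 Sox9Y440X/+ and 35 of 53 wild-type cells, a difference of 0.81, and the corepressor Aes differed by -0.10. Of other targets, the TGF-beta pseudoreceptor Bambi (-0.70) and the cyclin Ccnd1 (-0.52) had lower means in Sox9Y440X/+. The planar polarity genes Prickle1 (-0.09) and Prickle3 (0.27) differed little.

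Between cell classes of Sox9Y440X/+, 8 of 53 genes of these lists were at least 1 log2 unit higher and 10 lower in mesenchyme-like cells, where 10.3% and 13.8% of all genes were. Wls was detected in 12 of 18 mesenchyme-like and 34 of 37 epithelium-like cells, at medians of 27.6 FPKM and 321.4 FPKM, a difference of -3.93. Prickle1 was listed at 0 in all 18 mesenchyme-like cells and was detected in 21 of 37 epithelium-like cells. Ctnnb1 was detected in 18 of 18 mesenchyme-like and 28 of 37 epithelium-like cells, a difference of 1.53. Ror2, the receptor tied to Wnt5a, was detected in 6 of 18 mesenchyme-like cells (33.3%, 13.3% to 59.01%) and 20 of 37 epithelium-like cells (54.1%, 36.9% to 70.5%), a difference of -1.16.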

How the data were processed

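The data are 120 single-cell profiles, 62 Sox9Y440X/+ and 58 wild type. The authors deposited FPKM values in 1 table of 48555 gene entries. Per the submitters' processing notes, the genome was mm10 and the tools included Cufflinks, HTSeq, HISAT2 and SAMtools 0.1.18, with no settings or annotation named. Entries sharing a symbol were summed. The summed FPKM per cell ran from 192089 to 4.44e+06, with a median of 462576, and read depth is unknown. The number of genes in the labels equalled the entries above 0 in all 120 cells. Cells with fewer than 1000 genes (4 Sox9Y440X/+, 1 wild type) were left out.

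Ward clustering into 8 clusters used 15 principal components from log2(FPKM + 1) of 1500 genes, those of highest variance among genes found in 5 or more cells, leaving out the 39 members and 72 listed pathway genes. Clusters took the marker list, of 12, with the highest mean level and at least 3 markers in at least 50% of their cells. A cluster with more markers of another class than its own among its top 10 genes stayed unnamed. A cluster with at least 8 ionocyte markers was ionocyte-like. Of 121 markers, 120 were found. Doublets were not called.

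The pseudocount was 1. Shares have Clopper-Pearson 95% intervals, and for a share of 0 the limit that 3 counts would give. No test was made, since labels name no animals. The members and lists were chosen with earlier results of these data known. Members found in 10% or more of a main group's cells are described with values. Of each pathway list, up to 4 genes with the largest genotype difference of at least 1 log2 unit are named, or the 2 with the highest mean. All 39 members' identifiers were found in GENCODE M21 on GRCm38, the assembly of mm10, which gave coordinates, and promoters are from RefSeq. The computation was tested on simulated data. Python 3.11.15, NumPy 2.4.6, pandas 2.3.3, SciPy 1.17.1 and Matplotlib 3.10.9 were used. The alternatives tried were other pseudocounts, filters, scaling, cells, detection limits and clusterings.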

Additional observations from a re-analysis of the deposited data

Results flagged for a closer look

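Some cells entered no comparison and held members above every wild-type cell. Sox9Y440X/+ cell 12, in the unnamed cluster, had Wnt5a at 110.3 FPKM, Nkd1 at 429.1 FPKM and Fzd6 at 87.3 FPKM, where the highest wild-type cells reached 5.10, 269.7 and 34.9 FPKM. In the same cluster, cell 44 had Nkd1 at 383.9 FPKM and cell 51 had Wnt5a at 40.96 FPKM, with Axin2 at 7.83 and Lef1 at 5.47 FPKM. These 3 cells held 4 or 5 mesenchyme markers each and no more than 1 epithelium marker, while the 3 wild-type cells of the cluster held 8 to 11 ionocyte markers and 1 member, Znrf3, in 1 cell. Cell 21, left out for having 460 genes, had Wnt4 at 57.4 FPKM, where the highest wild-type cell had 14.7 FPKM. With so few genes per cell, what part few fragments have in these values was not tested.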

How the results depend on the processing

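No paired analysis was possible because numbers in the labels merely name cells and no test was made. There were 2 members at least 1 log2 unit higher in epithelium-like Sox9Y440X/+ than wild-type cells. That count was 4 at a pseudocount of 0.1, 1 at 10 and 1 by the log2 ratio of mean FPKM + 1. By that ratio the 1 higher member was Fzd10, not Wnt6 or Wnt10a. By it 2 members, Lef1 and Tcf7, were that much lower, against 0. For mesenchyme-like minus epithelium-like Sox9Y440X/+ cells, the count of 2 higher members was 6 at a pseudocount of 0.1, 1 at 10, 5 by the ratio of means, 1 with all 120 cells, 4 in odd-numbered and 1 in even-numbered cells, 1 without the highest cell of each group, and 4 without the mesenchyme-like cells with few mesenchyme markers. The count of 5 lower members was 2 at a pseudocount of 10 and 10 by the ratio of means. The other 68 of 82 recomputed counts lay within 1.5 times, and all 10 recomputed class shares lay within the intervals of the reported ones, as did 133 recomputed detection shares. A further 11 did not, each at a detection limit of 5 FPKM. Among members past 1 log2 unit, 334 recomputed differences stayed within 1.5 times, 75 moved further with the same sign and 1 turned round: Wnt6, ionocyte-like minus other epithelium-like Sox9Y440X/+ cells, was -2.65 and became 0.66 in odd-numbered cells, of which 2 were ionocyte-like. Over all alternatives the genotype difference of Wnt6 ran from 0.94 to 3.16 and that of Wnt10a from 0.51 to 2.75, and the class difference of Wnt5a from 1.19 to 5.49. The genotype difference of Fzd10 was 0.31 without the clusters nearly of 1 genotype. The cause of these moves was not tested. Leaving out mixed cells, the clusters nearly of 1 genotype, the within-cluster mean and naming the unnamed cluster by its markers were chosen after seeing the data. The design limits all of this: 1 sample per genotype, unknown animals, unknown depth per cell, and 5 ionocyte-like Sox9Y440X/+ cells.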
